A study of Mus musculus with 2 samples.

Results

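The 37 genes described here make, modify and break down sphingolipids, among them the gangliosides, and were taken by gene symbol from the deposited expression values of 21829 genes. All 37 symbols were found. Values came from mouse C2C12 cells, an immortalised myoblast line, with 1 WT library and 1 library of Gne-knockout cells (KO, labelled GNE KO). Gne encodes the bifunctional enzyme that starts sialic acid synthesis. The KO line was made with Cas9 and a guide RNA and grown from single-cell clones, and the number of clones behind the library is not given in the sources used here. Both lines were cultured as myoblasts in serum-containing medium, and the labels name no treatment for either. With 1 library per line no difference has a replicate check, so each comparison below gives both values and the size of the difference, without a p-value.

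Sphingolipids are built on ceramide. Serine palmitoyltransferase starts the pathway, ceramide synthases attach a fatty acid of a set length, and ceramide then becomes sphingomyelin or a glycolipid. Glucosylceramide and lactosylceramide are the stem from which gangliosides grow, and a ganglioside is a glycolipid that carries sialic acid. The same lipids are taken apart in lysosomes, and the sphingosine set free can be phosphorylated to sphingosine-1-phosphate, a signal known to act on muscle precursor cells.

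The deposited values were taken as FPKM, a level per transcript length and sequencing depth, so that levels of different genes can be compared within a library. Among genes with very low values, the value of a single sequenced fragment could be read from the steps between them, and for a transcript of 1 kb it was about 0.0371 FPKM in WT and 0.0426 FPKM in KO, so that the KO library was the shallower of the pair if the unit is FPKM. Fold changes are log2((KO + 1)/(WT + 1)), and the added 1 FPKM shrinks differences between low values. A filter of a mean of at least 1 FPKM kept 33 of the 37 genes and 10542 genes in all. Gne itself was at 6.67 FPKM in WT and 7.34 FPKM in KO, so its RNA level does not separate the lines. Of 9 myoblast markers, 7 were at 1 FPKM or more in WT and 4 in KO, with summed values of 278 and 106 FPKM. Myod1 was at 60.0 FPKM in WT and listed at 0 in KO, and Des was at 97.6 and 3.84 FPKM. Itga7 was at 47.4 FPKM in WT and 28.35 FPKM in KO, Cdh15 at 16.6 and 0.701 FPKM, and Chrna1 at 15.3 and 0.917 FPKM. Myf5 and Vcam1 had higher values in KO, 20.3 against 9.14 FPKM and 51.3 against 32.1 FPKM. Pax7 was listed at 0 in both libraries, and Myog was at 0.068 FPKM in WT and 0.027 FPKM in KO. The 6 fibroblast markers summed to 21.1 FPKM in WT and 321 FPKM in KO. Col1a1 was at 9.66 FPKM in WT and 273 FPKM in KO, and Postn at 0.44 and 33.9 FPKM. Dcn was at 0.272 and 1.68 FPKM, Pdgfra at 10.8 and 12.3 FPKM, and Lum and Thy1 were listed at 0 in both. The 3 endothelial and 3 epithelial markers had no value above 0.037 FPKM. The 3 blood markers summed to 2.94 and 1.06 FPKM, nearly all of it Cd68, with Ptprc at 0 in both. Fewer cells of a type and less RNA per cell cannot be told apart in such bulk samples, and the part of these shifts in the results below was not tested.

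Most of the pathway stayed close to its WT level, and 2 genes stood apart. Cers4, a ceramide synthase, and B4galt5, a lactosylceramide synthase, were the only genes of the 33 more than 2-fold lower in KO, and 0 were more than 2-fold higher. Among all filtered genes 3.43% had a value more than 2-fold lower, 2.84% one more than 2-fold higher, and 6.27% either. The 33 genes had a median log2 fold change of 0.094, against 0.0061 for all filtered genes. Of the 33, 20 had a higher value in KO (60.6%), against 50.7% of all. A log2 fold change within 0.5 in either direction was found for 27 genes (81.8%), against 80.9% of all, and 19.1% of all genes lay beyond 0.5. These shares were near those of all genes.

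**Figure D1:**
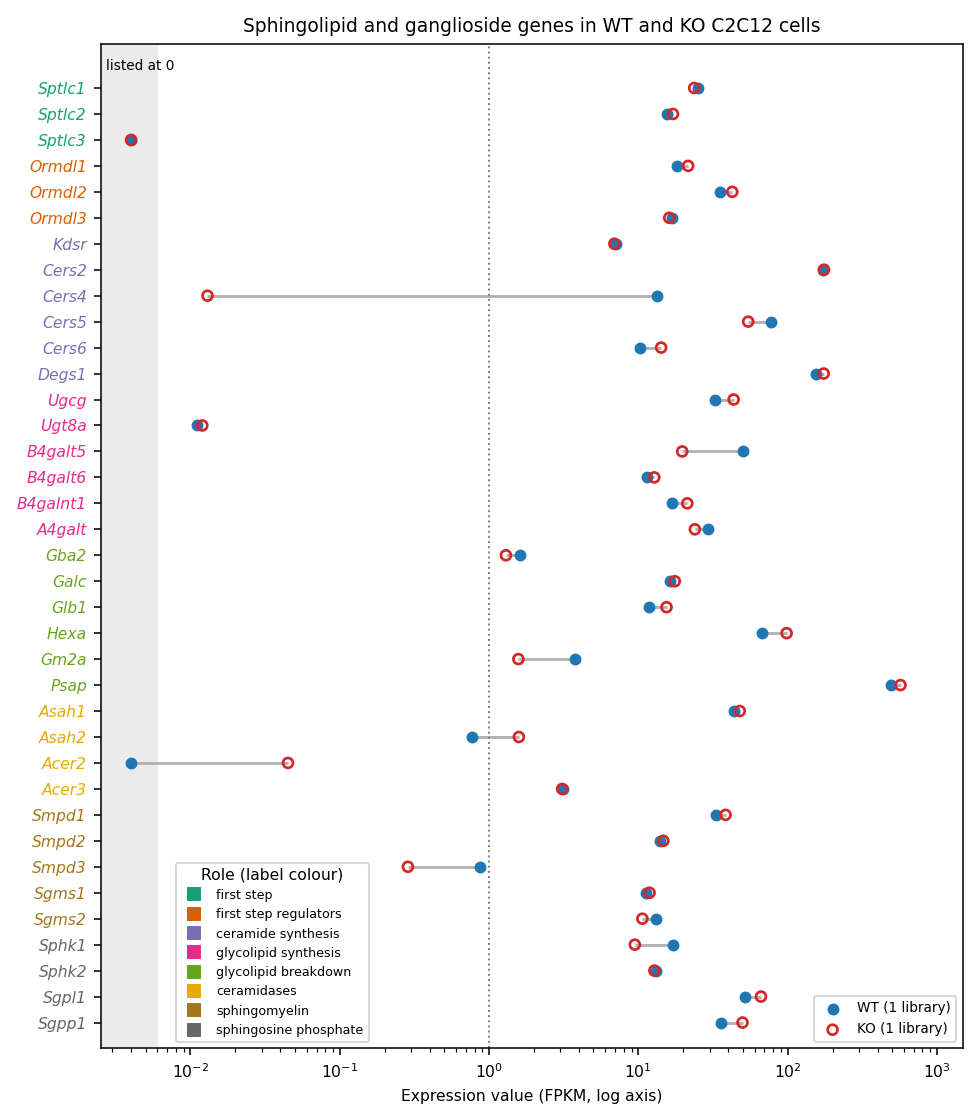
FPKM on a log axis of the 37 genes, 1 line per gene, with WT as filled points and KO as open points and each connected by a line. Genes listed at 0 are drawn in the grey strip at the left, label colours give the role, and the dotted line marks 1 FPKM. Cers4 shows the longest line, from 13.4 FPKM in WT to 0.013 FPKM in KO.

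The promoters of both genes with a more than 2-fold lower value are shown here for reference, together with one of the 5 windows of Sphk1. That window was picked because it holds the sequence CACGTG. The log2 fold change of Sphk1 was the fourth lowest of the list, and the window of Gm2a, the third lowest, lacks this sequence. Each sequence printed below is a RefSeq window (GRCm38.p6) of 300 bases, from 250 before to 50 after an annotated start. Each is written 5′ to 3′ along the gene and matched GRCm39 at a single place on its chromosome. Cers4 lies at chr8:4543155-4543454 on the plus strand, B4galt5 at chr2:167191049-167191348 on the minus strand and Sphk1 at chr11:116423020-116423319 on the plus strand. Capitals mark CG dinucleotides in the first pair and the E-box CACGTG in Sphk1.
Cers4: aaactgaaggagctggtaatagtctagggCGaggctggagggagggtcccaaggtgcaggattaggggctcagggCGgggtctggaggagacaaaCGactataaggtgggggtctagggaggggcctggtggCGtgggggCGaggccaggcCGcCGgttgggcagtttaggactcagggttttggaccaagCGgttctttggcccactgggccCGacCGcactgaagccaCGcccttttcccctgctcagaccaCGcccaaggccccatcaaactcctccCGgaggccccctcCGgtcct
B4galt5: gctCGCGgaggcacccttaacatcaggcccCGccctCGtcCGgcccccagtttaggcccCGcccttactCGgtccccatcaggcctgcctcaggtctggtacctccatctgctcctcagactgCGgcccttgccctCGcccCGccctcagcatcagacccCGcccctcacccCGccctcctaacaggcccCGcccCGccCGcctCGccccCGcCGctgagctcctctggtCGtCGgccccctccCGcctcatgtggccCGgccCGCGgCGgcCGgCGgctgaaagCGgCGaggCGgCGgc
Sphk1: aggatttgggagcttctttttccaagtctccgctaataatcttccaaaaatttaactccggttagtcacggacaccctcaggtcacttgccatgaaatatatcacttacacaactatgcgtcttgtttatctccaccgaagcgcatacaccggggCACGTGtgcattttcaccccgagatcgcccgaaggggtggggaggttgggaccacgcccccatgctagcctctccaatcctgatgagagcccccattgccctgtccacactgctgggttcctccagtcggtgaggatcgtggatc
The Cers4 window holds 14 CG dinucleotides and that of B4galt5 31. The median gene past the filter had 23 in its richest window, over 8379 genes with a window, so that these promoters lie on either side of the middle. CG content was looked at after the values had been seen, and DNA methylation was not measured here. The E-box CACGTG, which reads the same on both strands, was searched because factors that control lysosomal genes bind sites built on it. It was found in 7 of the 30 filtered genes of the list with a window (23.3%), and in 12.2% of all filtered genes with one. The list had more windows per gene (1.53 against 1.28), which raises the chance of a match. The holders were Cers2, Cers6, Degs1, Glb1, Smpd2, Sgms2 and Sphk1, and Glb1 was the only gene of lysosomal glycolipid breakdown among them. Their values in KO lay on both sides of WT, with Cers6 at a log2 fold change of 0.43 and Sphk1 at -0.80. The longer form TCACGTGA was in 0 of the 30 and in 2.43% of all.

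At the entry to the pathway the log2 fold changes of the filtered genes ran from -0.082 to 0.28. Serine palmitoyltransferase is a complex of Sptlc1 with Sptlc2 or Sptlc3. Sptlc1 was at 25.1 FPKM in WT and 23.7 FPKM in KO, and Sptlc2 at 15.5 and 17.1 FPKM. Sptlc3 was listed at 0 in both libraries, where 3 fragments would correspond to about 0.039 FPKM in WT and 0.045 FPKM in KO. The 3 subunits together made 40.6 FPKM in WT and 40.7 FPKM in KO. The ORMDL proteins restrain this enzyme when ceramide is plentiful. Ormdl2, the highest of them, was at 35.0 FPKM in WT and 42.6 FPKM in KO, a log2 fold change of 0.28. Ormdl1 was at 18.1 and 21.6 FPKM, and Ormdl3 was at 16.8 and 16.1 FPKM. Ormdl2 lies on chromosome 10, where the filtered genes within 5 Mb had a median log2 fold change of 0.15. On the opposite strand it overlaps Dnajc14, at 28.4 FPKM in WT and 37.8 FPKM in KO, and Sarnp, at 13.5 and 16.8 FPKM.

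Ceramide synthesis showed the largest difference of the list. Kdsr, the reductase of the second step, was at 7.06 FPKM in WT and 6.91 FPKM in KO. Of the ceramide synthases, Cers2, which favours very-long-chain fatty acids, was the highest in both libraries at 174 and 175 FPKM. Cers4, which favours shorter, long-chain ones, was at 13.4 FPKM in WT and 0.013 FPKM in KO, a log2 fold change of -3.83. The KO value corresponds to about 3.17 fragments for the longest of 12 coding transcripts in GENCODE vM39 and to fewer for the others, so the fold depends on the pseudocount and its size cannot be fixed from these data. Cers4 spans chr8:4542809-4581680 of GRCm39 on the plus strand. Its nearest filtered neighbours had no such difference. Ccl25, 2.0 kb before it, was at 1.15 FPKM in WT and 2.47 FPKM in KO, and Zfp958, 81.5 kb after it, at 4.45 and 4.33 FPKM. The 22 filtered genes within 5 Mb of Cers4 had a median of -0.076, and 1 of them was more than 2-fold lower.

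Cers5 and Cers6, the synthases that favour palmitate, differed in opposite directions. Cers5 was at 76.97 FPKM in WT and 54.4 FPKM in KO, a log2 fold change of -0.49. The 96 filtered genes within 5 Mb of Cers5 on chromosome 15 had a median of -0.40, which leaves -0.093 after subtraction. Cers6 was at 10.3 FPKM in WT and 14.2 FPKM in KO, a log2 fold change of 0.43 where its neighbours had -0.10. By share of the summed FPKM of these 4 synthases, Cers2 made 63.3% in WT and 71.8% in KO, Cers4 4.87% and 0.0053%, Cers5 28.0% and 22.3%, and Cers6 3.76% and 5.83%. Their sum was 275 FPKM in WT and 244 FPKM in KO. Degs1, the desaturase that turns dihydroceramide into ceramide, was among the highest genes of the list, at 155 FPKM in WT and 175 FPKM in KO.

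**Figure D2:**
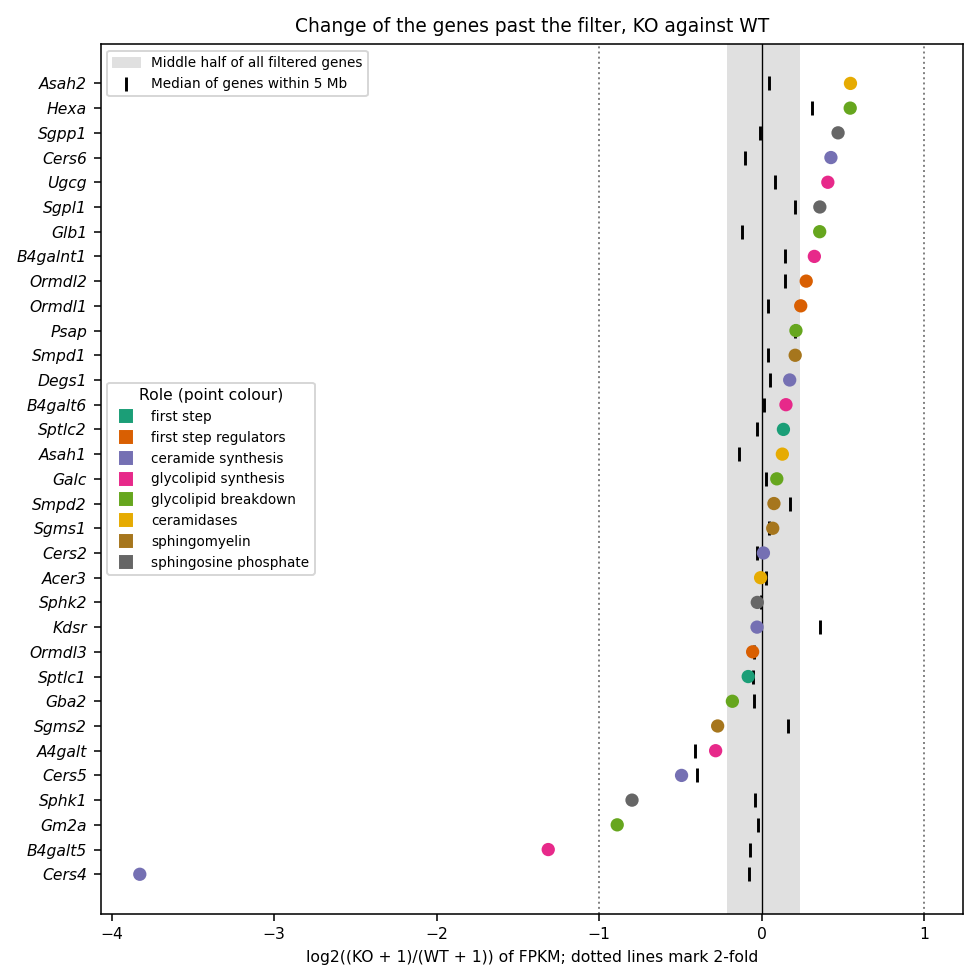
The log2 fold change of the 33 genes past the filter, ordered by size, with point colour for the role. The grey band holds the middle 50% of all filtered genes (-0.21 to 0.23), short vertical bars give the median of filtered genes within 5 Mb, and dotted lines mark 2-fold; only Cers4 and B4galt5 lie beyond them.

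Of the 5 filtered genes of glycolipid synthesis, 3 had a higher value in KO (60.0%, against 50.7% of all filtered genes) and 2 a lower one. The main lactosylceramide synthase gene differed most. Ugcg, glucosylceramide synthase, was at 32.5 FPKM in WT and 43.5 FPKM in KO, a log2 fold change of 0.41. B4galt5, the main source of lactosylceramide in many tissues, was at 50.4 FPKM in WT and 19.7 FPKM in KO, a log2 fold change of -1.31. B4galt6, its partner enzyme, was at 11.4 and 12.8 FPKM. B4galt5 thus made 81.5% of the summed FPKM of the pair in WT and 60.6% in KO, and the sum was 61.8 FPKM in WT and 32.5 FPKM in KO. B4galt5 lies at chr2:167140364-167191291 of GRCm39 on the minus strand. The 61 filtered genes within 5 Mb had a median of -0.070, and 4 of them were more than 2-fold lower. One of these 4 is its nearest neighbour, 57.3 kb away. This gene, Ptgis, which encodes prostacyclin synthase, was at 19.0 FPKM in WT and 0.026 FPKM in KO. On the other side Slc9a8, 72.2 kb away, was at 12.7 and 10.0 FPKM.

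**Figure D3:**
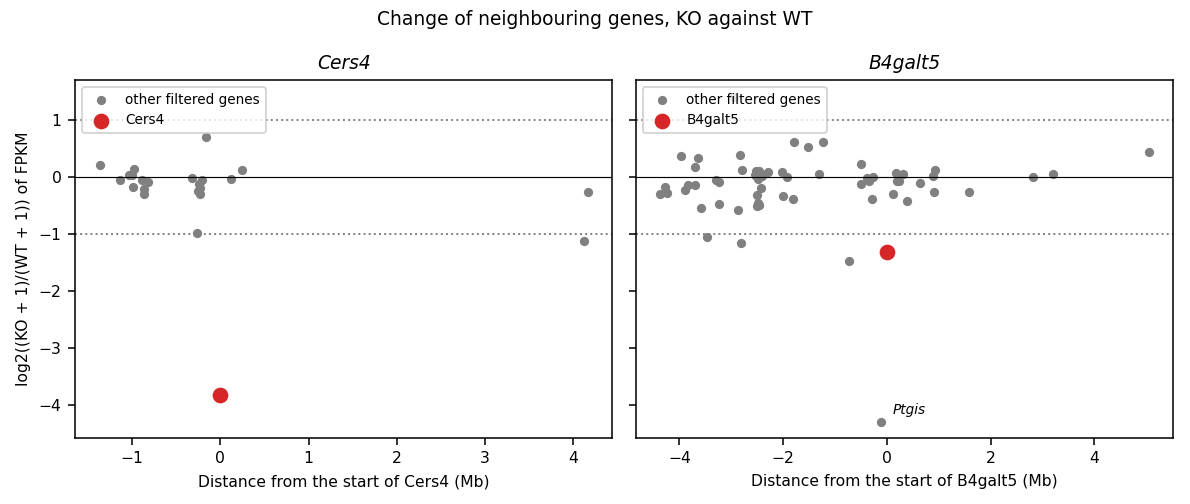
The log2 fold change of filtered genes within 5 Mb of Cers4 (left) and B4galt5 (right) against the distance of their starts in Mb, with the named gene in red and dotted lines at 2-fold. Around Cers4 most points sit near 0, and beside B4galt5 the point of Ptgis is at -4.28.

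B4galnt1, which adds N-acetylgalactosamine to make GM2 and GD2, was at 16.8 FPKM in WT and 21.3 FPKM in KO, a log2 fold change of 0.33. A4galt leads the other way, to the globoside Gb3, and was at 29.3 and 23.9 FPKM. The filtered genes around A4galt on chromosome 15 had a median of -0.41, and A4galt itself had a log2 fold change of -0.28. Subtraction of that median leaves 0.13. Ugt8a, the synthase of galactosylceramide, a lipid of myelin, was at 0.011 FPKM in WT and 0.012 FPKM in KO, each close to the value of 1 fragment. St3gal5, which adds the first sialic acid to make GM3 and is not on the list, was at 21.3 and 19.5 FPKM.

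Of the 6 filtered genes of glycolipid breakdown, 4 had a higher value in KO (66.7%, against 50.7% of all filtered genes) and Gm2a and Gba2 a lower one. On the scale with 1 FPKM added, 0 of the 6 differed more than 2-fold, against 6.27% of all filtered genes. Psap, the precursor of the saposins that present glycolipids to their hydrolases, was the highest gene of the list, at 492 FPKM in WT and 570.4 FPKM in KO. The genes within 5 Mb of it on chromosome 10 had a median of 0.20, and Psap itself 0.21. Hexa, the alpha subunit of the hexosaminidase that degrades GM2, was at 67.1 FPKM in WT and 98.5 FPKM in KO, a log2 fold change of 0.55. Genes within 5 Mb of Hexa had a median of 0.31, which leaves 0.23. Glb1, the beta-galactosidase that degrades GM1, was at 11.8 and 15.4 FPKM, where the neighbours had a median of -0.12. Glb1 overlaps Tmppe on the same strand, which makes its value uncertain where reads were split between them. Galc, which degrades galactosylceramide, was at 16.4 and 17.6 FPKM, and Gba2, a glucosylceramidase outside the lysosome, at 1.601 and 1.297 FPKM.

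Gm2a is the protein that lifts GM2 out of the membrane for Hexa. It was at 3.76 FPKM in WT and 1.57 FPKM in KO, a log2 fold change of -0.89 that the pseudocount holds back, since it was -1.21 with a pseudocount of 0.1. Its 86 filtered neighbours had a median of -0.024. Hexa and Gm2a, which act together, thus differed in opposite directions. The ratio of their FPKM was 17.8 in WT and 62.6 in KO. This ratio was not planned, and other ratios were computed that are not given here.

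Of the ceramidases, which release sphingosine from ceramide, the lysosomal one prevailed in both lines. Asah1, acid ceramidase, was at 43.7 FPKM in WT and 47.8 FPKM in KO and made 91.9% and 91.0% of the family sum. Asah2, neutral ceramidase, was at 0.768 FPKM in WT and 1.58 FPKM in KO, a log2 fold change of 0.55 that became 0.96 with a pseudocount of 0.1. Its mean of 1.18 FPKM passed the filter only through the KO value. Acer3 was at 3.11 and 3.09 FPKM. Acer2 was listed at 0 in WT and at 0.045 FPKM in KO, and a count of 3 fragments in WT would correspond to 0.026 FPKM.

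The 4 filtered sphingomyelin genes had log2 fold changes from -0.27 to 0.21. Smpd1, acid sphingomyelinase, was at 33.1 FPKM in WT and 38.4 FPKM in KO, and Smpd2, a neutral one, at 13.9 and 14.7 FPKM. Smpd3, another neutral sphingomyelinase, missed the filter, at 0.871 FPKM in WT and 0.286 FPKM in KO, or about 122 and 34.9 fragments. Smpd3 had a log2 fold change of -0.54 with 1 FPKM added and of -1.33 with 0.1 FPKM added. Sgms1, the sphingomyelin synthase of the Golgi, was at 11.3 and 11.9 FPKM. Sgms2, which also acts at the cell surface, was at 13.0 and 10.6 FPKM. Sgms1 thereby made 46.4% of the summed synthase FPKM in WT and 52.8% in KO.

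Of the 4 filtered genes around sphingosine-1-phosphate, 2 had a higher value in KO (50.0%, against 50.7% of all filtered genes) and 2 a lower one. A log2 fold change within 0.5 in either direction was found for 3 of them (75.0%, against 80.9% of all). Sphk1, a kinase that makes sphingosine-1-phosphate, was at 17.2 FPKM in WT and 9.47 FPKM in KO, a log2 fold change of -0.80. The 126 filtered genes within 5 Mb of Sphk1 had a median of -0.038. Sphk2, the other kinase, was at 13.1 and 12.8 FPKM, and it overlaps Rpl18, a far higher gene on the opposite strand. Sphk1 made 56.8% of the summed kinase FPKM in WT and 42.5% in KO, so that Sphk2 was the higher of the pair in KO. Sgpl1, the lyase that cleaves sphingosine-1-phosphate for good, was at 51.5 FPKM in WT and 66.3 FPKM in KO, a log2 fold change of 0.36 of which 0.16 was left after its neighbours. Sgpp1, the phosphatase that turns it back into sphingosine, was at 35.7 and 49.9 FPKM, a log2 fold change of 0.47 where the neighbours had -0.011.

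**Figure D4:**
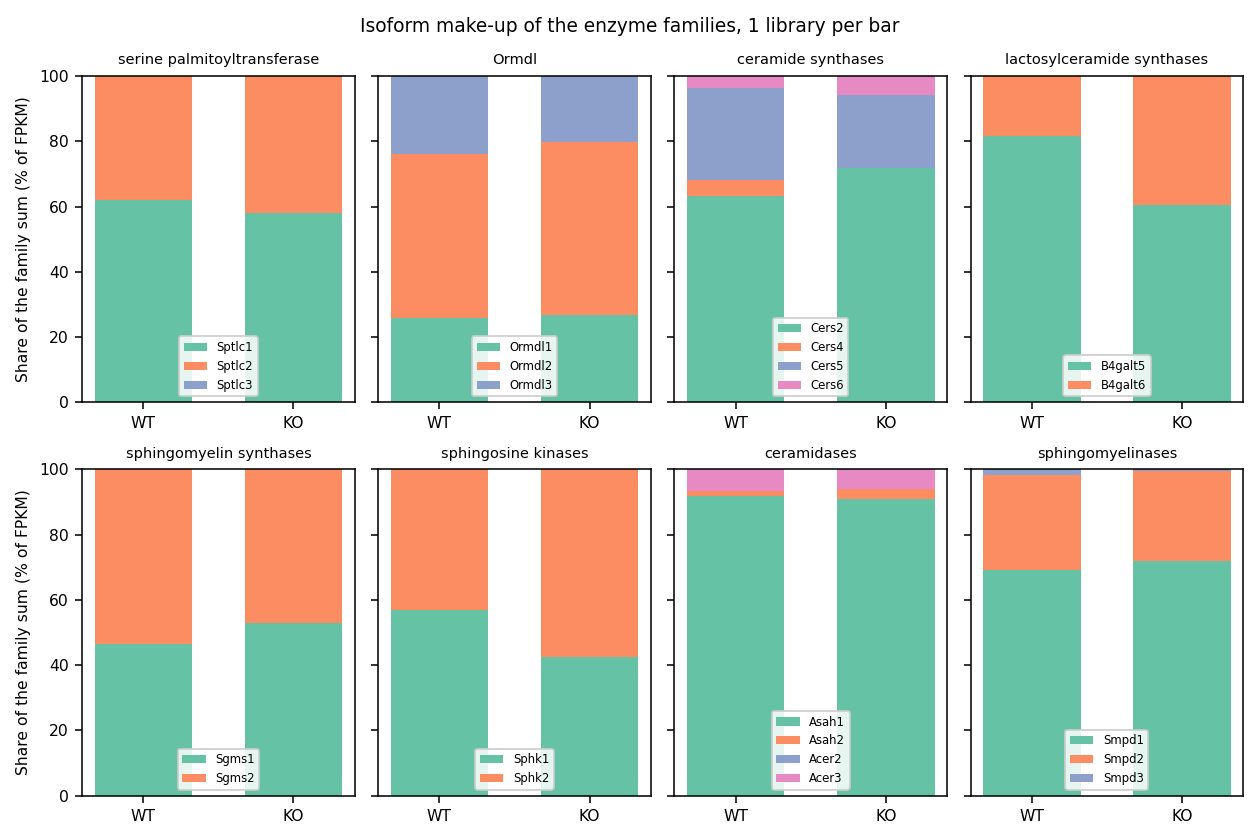
Share of each gene in the summed FPKM of its family, in percent, with 1 bar for the WT and 1 for the KO library in each of 8 families. B4galt5 makes 81.5% of the lactosylceramide synthases in WT and 60.6% in KO, Sphk1 56.8% and 42.5% of the sphingosine kinases, and Cers4 4.87% and 0.0053% of the ceramide synthases.

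By chromosome, the 37 genes lie on 14, and no more than 5 of them on one, chromosome 10. The 5 genes there, Ormdl2, B4galnt1, Psap, Smpd2 and Sgpl1, all had a higher value in KO, against 50.7% of all filtered genes. Psap and Sgpl1 lie within 5 Mb of each other, as do Ormdl2 and B4galnt1, so these genes are not separate regions. Their log2 fold changes ran from 0.076 to 0.36, and medians of their neighbours from 0.15 to 0.20. After subtraction of these medians the differences ran from -0.098 for Smpd2 to 0.18 for B4galnt1, with Psap at 0.0081. Cers5 and A4galt, on chromosome 15, both had a lower value where neighbours were at -0.40 and -0.41. Of the 3 genes on chromosome 8, Cers4 and Smpd3 had lower values and Asah1 a higher one.

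Further genes of the pathway, 58 by list of which 56 were found, were read for comparison. Past the filter were 37, among which 2 lay above a 2-fold difference and 2 below (among all filtered genes 2.84% and 3.43%). Their median log2 fold change was -0.015. The higher genes were both receptors of sphingosine-1-phosphate. S1pr3 was at 1.33 FPKM in WT and 8.43 FPKM in KO, a log2 fold change of 2.01, and S1pr1 at 4.67 and 13.0 FPKM, a log2 fold change of 1.31. S1pr2 was at 6.18 and 12.4 FPKM, a log2 fold change of 0.90, and S1pr4 and S1pr5 were near or at 0. The 3 receptors past the filter had higher values in KO, as had 50.7% of all filtered genes. Neighbours of S1pr3, S1pr1 and S1pr2 had medians of -0.082, 0.19 and 0.30.

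The lower genes were Tecr and Naaa. Tecr, the last enzyme of each round of very-long-chain fatty acid elongation, was at 550.0 FPKM in WT and 187 FPKM in KO. The log2 fold change of Tecr was -1.55, and genes around it on chromosome 8 had a median of -1.39. Naaa, a lysosomal amidase related to acid ceramidase, was at 8.495 and 2.39 FPKM, a log2 fold change of -1.48 where the neighbours had -0.098. Neu1, the lysosomal sialidase, was at 10.4 FPKM in WT and 14.03 FPKM in KO, and Neu3, the sialidase that acts on gangliosides at the cell surface, missed the filter at 0.869 and 0.927 FPKM. Col4a3bp, which carries ceramide to the Golgi for sphingomyelin synthesis, was at 14.4 and 17.9 FPKM.

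**Figure D5:**
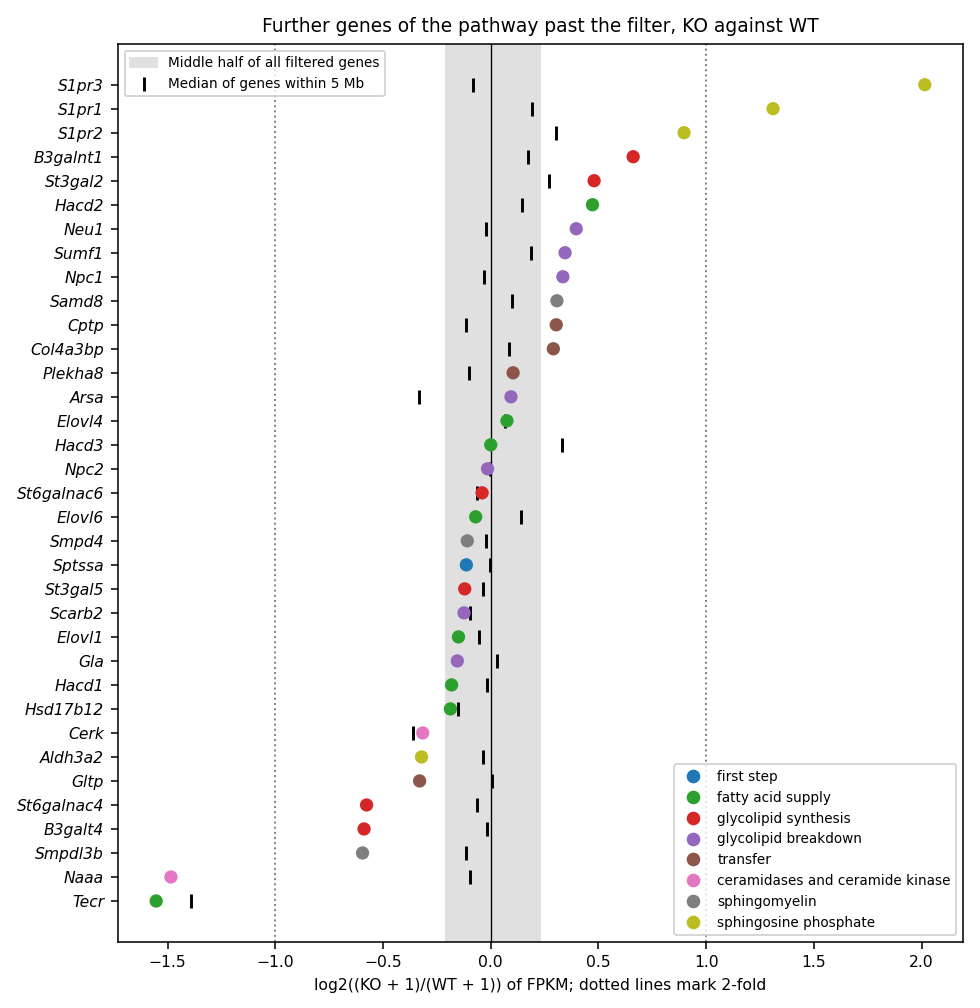
The log2 fold change of 35 of the 37 further pathway genes past the filter, ordered by size and coloured by role. The grey band holds the middle 50% of all filtered genes, short vertical bars give the median of genes within 5 Mb, and dotted lines mark 2-fold; S1pr3 (2.01) and S1pr1 (1.31) lie above and Tecr (-1.55) and Naaa (-1.48) below.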

How the data were processed

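RNA sequencing of 1 WT and 1 KO C2C12 library was analysed. Each library's table pairs gene symbols with 1 number and names no unit. The deposited values, which the authors made from aligned reads with RSEM, were taken as FPKM because they are not whole, sum to 568543 and 574253, and have low steps that follow transcript length. A TPM table of these genes is not excluded and would differ by 1 factor per library. The submitters' processing notes name Trim Galore 0.6.6, STAR 2.7.9a, RSEM 1.3.3 and GRCm38, whereas the methods name GRCm39. The labels and methods also name different library kits. The design set no test, because no replicate exists.

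Symbols repeated in 24 of 21853 rows were reduced to their higher row. The value of 1 fragment was the first peak of value times length over coding genes with 1 transcript, 0.0371 in WT and 0.0426 in KO for 1 kb. Estimates in fragments use GENCODE vM39 lengths and cover counting only. Positions on GRCm39 were matched for 10360 of 10542 filtered genes. Promoter windows were matched for 33 of 37 genes. Of the 37 genes, 11 overlap another gene of the tables, 2 of them on the same strand, and whether reads were assigned by strand is not given in the sources used here. All 37 genes were accounted for, and further pathway genes were named when more than 2-fold changed or fixed by name, except that 2 of the latter are not reported here. The nearest neighbours, Ptgis and the CG counts were chosen after values were seen. The printed Sphk1 window was picked for its E-box. Members and lists were chosen with earlier results of these data known. Procedures were tested on simulated data. Alternatives were other pseudocounts (0.1 and 5), other filters (none, and a mean of 5 FPKM or more), scaling by the median of ratios, summed rows and subtraction of the median of genes within 5 Mb. Python 3.11.15, numpy 2.4.6, pandas 2.3.3 and matplotlib 3.10.9 were used.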

Additional observations from a re-analysis of the deposited data

How the results depend on the processing

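No paired analysis was possible because there is 1 library per line and no test, and leaving out a library was not possible for the same reason. The counts of 0 genes of the list more than 2-fold higher and 2 lower did not change with a pseudocount of 5, without a filter, with a 5 FPKM minimum, with scaling by the median of ratios (a factor of 1.00), with summed rows or relative to neighbouring genes. With a pseudocount of 0.1 the lower genes were 3, Gm2a being the added one. The median log2 fold change of the list, 0.094, ran from 0.067 to 0.13. Of the further pathway genes, 1 was higher and 1 lower with a pseudocount of 5, 1 was higher with the 5 FPKM minimum, which leaves out S1pr3, and 1 was lower after subtraction of neighbours, where Tecr became -0.16. All genes more than 2-fold higher and lower, 299 and 362, numbered 102 and 176 under a pseudocount of 5. Under the 5 FPKM minimum, which keeps fewer genes, they numbered 145 and 221. The E-box count of 7 became 0 with TCACGTGA. Cers4 ranged from -6.90 with a pseudocount of 0.1 to -1.87 with a pseudocount of 5. With 1 library per line, a difference between clones and one from the edit of Gne cannot be told apart.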
